A study of Mus musculus with 16 samples.

Results

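The transcription factors and chromatin proteins that hold mouse embryonic stem cells (ESCs) in the naive pluripotent state, several of them targets of leukaemia inhibitory factor (LIF), were followed in *Stat3* null and wild-type (WT) cells of chimeric mouse embryos. The group is a list of 10 gene names, *Pou5f1*, *Nanog*, *Sox2*, *Klf2*, *Klf4*, *Esrrb*, *Tfcp2l1*, *Utf1*, *Zfp42* and *Dppa3*, and all 10 were found among the 29453 genes of the matrix. The list sets no threshold on any measured value. Chimeras were made by injecting *Stat3* null ESCs that expressed tdTomato into WT blastocysts. Donor and host both came from the CD1 stock. Whole embryos of embryonic day E7.5, of E8.5 or of E9.5 were sorted into tdTomato-positive (null, donor) and tdTomato-negative (WT, host) cells and sequenced as single cells in droplets, where each transcript is counted once from its 3′ end by a unique molecular identifier (UMI). Each genotype had 2 libraries of E7.5, 2 of E8.5 and 4 of E9.5. Embryos were pooled at the earlier stages, and the study describes 2 embryos at E9.5, so that the 4 libraries of a genotype share embryos and n = 4 does not count independent animals. At E7.5 the study classed embryos as large or small before pooling them, and the labels do not tell which size a library holds. Each p-value measures the spread between libraries, and the part of embryo size in that spread at E7.5 was not tested. The libraries of a group carry the letters A to D. A letter is only a name and pairs no null library with a WT one. Null cells had developed among WT neighbours, and they came from cultured ESCs, whereas the WT cells came from the blastocyst itself.

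LIF binds its receptor together with gp130, Janus kinases phosphorylate STAT3, and STAT3 moves to the nucleus to switch on genes that keep ESCs self-renewing. *Klf4* and *Tfcp2l1* are well-known direct targets of that arm. *Esrrb*, *Klf2* and *Nanog* belong to the same interlocked naive circuit, and *Pou5f1* and *Sox2* form its core. In the embryo these genes part ways after implantation. *Pou5f1* and *Nanog* persist in the epiblast and later in primordial germ cells, *Sox2* is kept in neural tissue, *Esrrb* and *Sox2* are used in the trophoblast lineage, and *Klf2* and *Klf4* have further roles in vessels and epithelia. Donor ESCs contribute little to the trophoblast and extra-embryonic endoderm of a chimera, so that these tissues are mainly of host origin.

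The core factors *Pou5f1* (chr17:35506018-35510772), which encodes OCT4, and *Sox2* (chr3:34650405-34652461) bind DNA as partners, and the homeobox factor *Nanog* (chr6:122707489-122714633) stabilises their network. *Klf2* (chr8:72319033-72321656) and *Klf4* (chr4:55527143-55532466) encode zinc finger factors, *Esrrb* (chr12:86361117-86521628) an orphan nuclear receptor, and *Tfcp2l1* (chr1:118627945-118685168) a factor of the grainyhead family. *Utf1* (chr7:139943789-139945112) encodes a chromatin-bound protein of undifferentiated cells, and *Zfp42* (chr8:43295063-43306980) encodes REX1, a zinc finger protein widely used as a marker of naive cells. *Dppa3* (chr6:122626410-122630272) encodes STELLA, which protects the maternal genome of the zygote from loss of methylation and marks germ cells. Positions are those of the GENCODE annotation of GRCm38. *Zfp42* and *Klf4* lie on the minus strand and the others on the plus strand.

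*Esrrb*, *Zfp42* and *Tfcp2l1* were the members called lower in null than in WT libraries at E7.5 (values follow), and their RefSeq promoter windows of 300 bases on GRCm38.p6 are printed 5′ to 3′ for that reason. Capitals mark matches, on either strand, to a STAT palindrome (TTCNNNGAA), the octamer bound by POU factors (ATGCAAAT) or a SOX element (CATTGT). The *Esrrb* window lies at chr12:86360867-86361166 on the plus strand, the *Zfp42* window at chr8:43306960-43307259 on the minus strand and the *Tfcp2l1* window at chr1:118627695-118627994 on the plus strand.
Esrrb: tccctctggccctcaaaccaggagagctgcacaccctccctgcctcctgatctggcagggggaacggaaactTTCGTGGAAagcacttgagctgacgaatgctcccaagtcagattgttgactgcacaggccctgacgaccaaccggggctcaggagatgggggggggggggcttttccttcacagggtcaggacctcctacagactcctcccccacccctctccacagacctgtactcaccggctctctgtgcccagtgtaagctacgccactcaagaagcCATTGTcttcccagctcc
Zfp42: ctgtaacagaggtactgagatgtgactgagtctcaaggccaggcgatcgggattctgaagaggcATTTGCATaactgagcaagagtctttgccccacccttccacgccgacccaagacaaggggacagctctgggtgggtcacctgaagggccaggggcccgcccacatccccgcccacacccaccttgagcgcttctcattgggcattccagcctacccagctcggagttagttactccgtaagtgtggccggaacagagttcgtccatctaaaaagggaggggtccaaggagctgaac
Tfcp2l1: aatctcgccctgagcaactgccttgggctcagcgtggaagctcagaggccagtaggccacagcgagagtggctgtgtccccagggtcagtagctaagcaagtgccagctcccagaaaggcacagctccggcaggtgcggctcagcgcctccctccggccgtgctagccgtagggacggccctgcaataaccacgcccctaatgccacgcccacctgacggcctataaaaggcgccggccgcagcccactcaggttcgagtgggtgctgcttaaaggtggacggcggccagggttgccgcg
The STAT palindrome of *Esrrb* began 178 bases before the annotated start and its SOX element 32 bases after it. The octamer of *Zfp42* began 186 bases before the start, and the *Tfcp2l1* window held none of the 3 motifs. Of 32851 promoter windows of the same length, 8.3% held the STAT palindrome, 1.74% the octamer and 12.6% the SOX element. The table gave 12 windows for 9 members and none for *Dppa3*. A second *Esrrb* window, further into the gene, held none of the motifs. A match is a description of the letters and was not tested as a binding site.

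Cells called as doublets were left out, as were cells of the WT gate that held tdTomato UMIs, and 37841 of 41832 cells in 87 cell types were analysed, with 360 to 4327 cells and 20682659 to 138613245 UMIs per library. Cell types are the authors' labels. *Stat3* itself, given as CPM, the UMIs of a gene per 1000000 UMIs of the library, lay between 1.16 and 2.53 in the 8 null libraries and between 6.14 and 9.31 in the 8 WT libraries. Over cells of both genotypes, 7 of 7 epiblast markers and 6 of 7 extra-embryonic (ExE) ectoderm markers were higher under their label at E7.5. The exception was *Wfdc2*. At E9.5, 8 of 8 germ cell markers were higher under the germ cell label. Each label was set against the other cells of its stage. The germ cell label was not checked in this way at E7.5 or E8.5. Labels were assigned on the whole transcriptome, markers included, so these counts are a description. Of 37351 distinct barcodes, 488 were seen in more than 1 library. Null cells were sequenced more deeply than WT cells at E7.5, with library medians of 40816.5 to 57791.5 against 29556 to 37856 UMIs per cell.

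In WT libraries 6 of the 10 factors fell between E7.5 and E8.5, and 4 of them also with extra-embryonic cells left out. *Pou5f1* stood at 154 and 347 CPM in the WT libraries of E7.5 and at 2.32 and 5.76 CPM at E8.5. *Nanog* stood at 4.42 and 9.91 CPM and then at 0.157 and 0.0802 CPM, and *Utf1* at 89.5 and 108 CPM and then at 0.820 and 1.32 CPM. For each of these genes the lower E7.5 library was far above the higher E8.5 library. By edgeR's quasi-likelihood test on summed UMIs, 6 of 10 members were called lower at E8.5, at a Benjamini-Hochberg adjusted p under 0.05 over all genes and an absolute log2 fold change over 1, where 8.54% of the 15579 genes tested were called lower and 17.7% in either direction. The log2 fold change was -5.81 (SE 0.77, adjusted p = 0.00014) for *Pou5f1*, -5.74 (SE 0.69, adjusted p = 3.4e-05) for *Nanog* and -6.37 (SE 0.87, adjusted p = 0.00016) for *Utf1*. *Esrrb*, *Zfp42* and *Tfcp2l1* were the other members called, with log2 fold changes of -5.99, -5.80 and -2.29. *Klf2*, *Klf4* and *Dppa3* were not called and *Sox2* was under the fold limit (log2 fold change 0.68, SE 0.24, adjusted p = 0.035). The *Esrrb* and *Tfcp2l1* calls were lost, and *Tfcp2l1* turned to 0.29, once the 4 extra-embryonic types (ExE ectoderm, ExE endoderm, Visceral endoderm and Parietal endoderm) were left out. With equal weight per cell type, 0 members were called. That fit used limma on log2(CPM + 1) of the mean over the 2 types shared by these libraries.

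*Sox2* was 73.7 and 55.7 CPM in WT libraries at E7.5, 88.3 and 95.4 CPM at E8.5, and 188, 190, 172 and 124 CPM at E9.5, so that every E8.5 value exceeded every E7.5 value and every E9.5 value exceeded every E8.5 value. Between E8.5 and E9.5 its log2 fold change was 0.61 (SE 0.21, adjusted p = 0.0345 by edgeR), again under the fold limit. *Tfcp2l1* was the only member called in that step. It stood at 0.796 and 1.04 CPM at E8.5 and between 0.291 and 0.585 CPM in the 4 WT libraries of E9.5, and fell by 1.25 on the log2 scale (SE 0.30, adjusted p = 0.0045), where 10.1% of genes were called. Without WT library B of E8.5 the value was -1.06 and was not called. With equal weight per cell type, over 18 shared types, it was 0.048 and was not called. The equal weight fit adds 1 CPM to each level, which shrinks changes in a gene this low. It could therefore hardly reach the fold limit for *Tfcp2l1*. *Pou5f1* had a log2 fold change of -1.44 (adjusted p = 0.097), which became -2.15 (adjusted p = 0.033) once cells labelled primordial germ cells (PGC) were left out. It was called in that fit, and also without WT library D of E9.5.

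**Figure D1:**
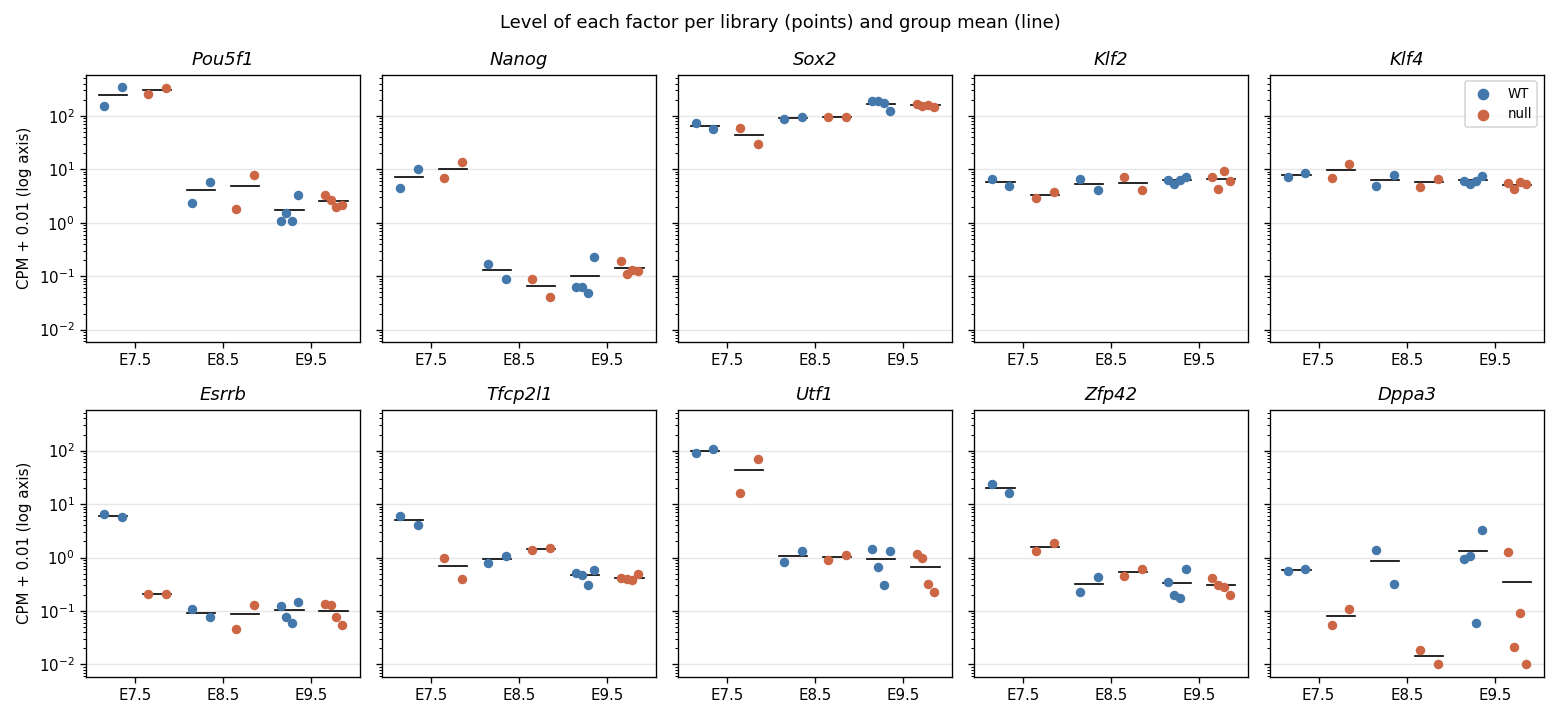
Level of each of the 10 factors in every library, in CPM plus 0.01 on a log axis, by stage, with WT libraries in blue, null libraries in red and a line at the group mean. At E7.5 the null libraries of *Esrrb*, *Tfcp2l1* and *Zfp42* lie below the WT ones, whereas the groups overlap for *Pou5f1* and *Nanog*, and *Pou5f1*, *Nanog* and *Utf1* drop after E7.5 in both genotypes.

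The members occupied different tissues. The cell types were assigned on the whole transcriptome, members included, so the levels that follow are a description, given as UMIs of a type summed over the libraries of a group. Levels are compared between types for 1 gene at a time, among types with at least 20 cells.

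*Pou5f1* in WT cells of E7.5 was highest in the Primitive Streak (946 CPM, 77 cells of 1 library), followed by Caudal epiblast (791 CPM), Epiblast (730 CPM) and Ectoderm (514 CPM). The library values of Caudal epiblast, 674 and 872 CPM, enclosed that of the 1 Epiblast library with over 15 cells, at 764 CPM, so these neighbours in the order did not differ beyond their spread. None of the 18 types was without a *Pou5f1* UMI, and the median over types was 142 CPM. By E8.5 the highest type was Non-neural ectoderm at 44.0 CPM, where 1 cell gave most of the UMIs, followed by Ectoderm at 38.0 CPM and neuromesodermal progenitors at 21.6 CPM.

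*Nanog* followed *Pou5f1* closely. It was highest in the Primitive Streak at E7.5, at 49.7 CPM in WT and 72.8 CPM in null cells, and next highest in Non-neural ectoderm (30.8 CPM in WT cells). At E8.5 it was without a UMI in 50 of 62 WT types, and outside PGC no type passed 2.32 CPM.

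*Sox2* was highest at E7.5 in Epiblast (208 CPM), Ectoderm (179 CPM) and ExE ectoderm (137 CPM) of WT cells, and from E8.5 in the neural tube. Hindbrain floor plate headed the list at E8.5 with 546 and 469 CPM in the WT libraries and 491 and 447 CPM in the null ones. It did so again at E9.5, with 482 to 566 CPM over 4 WT libraries and 492 to 528 CPM over 4 null libraries. The next types at E9.5, Hindbrain neural progenitors (475 to 560 CPM) and Ventral hindbrain progenitors (455 to 527 CPM), overlapped with it in WT cells.

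*Klf2*, which in the adult vessel wall responds to flow, was highest in endothelium from E8.5 among types with at least 20 cells. It reached 343 and 111 CPM in the WT libraries of yolk sac (YS) endothelium at E8.5 and 252 and 71.7 CPM in the null ones, with 13 and 14 cells in the lower library of each genotype. Venous endothelium came next, at 78.5 and 61.8 CPM in WT and 52.1 and 33.9 CPM in null libraries. At E9.5 *Klf2* in Endocardium stood at 254.6, 184, 472 and 421 CPM in null libraries and at 92.0, 235, 196 and 75.7 CPM in WT libraries. Those values came from 4 to 12 cells per library, the groups overlapped, and the type was too small to be tested. At E7.5 the higher WT types were Node (31.4 CPM, 21 cells), ExE endoderm (25.3 CPM) and ExE ectoderm (20.9 CPM).

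*Klf4* was found widely, without a UMI in 0 of 18 WT types at E7.5 and in 1 of 62 at E8.5. Its highest type at E7.5 was Lateral plate mesoderm, at 13.1 and 22.3 CPM in WT and 16.2 and 34.8 CPM in null libraries. At E9.5 WT Parietal endoderm stood apart from every other type at 455 CPM (304 UMIs in 24 cells of 2 libraries, 388 and 494 CPM), and no null cell carried that label. Epidermis followed, at 12.6 to 34.4 CPM in WT and 17.8 to 44.2 CPM in null libraries.

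*Tfcp2l1* was a gene of endoderm and trophoblast. In WT cells of E7.5 it stood at 42.4 CPM in ExE endoderm, 23.7 CPM in ExE ectoderm and 18.8 CPM in Visceral endoderm, and at no more than 1.77 CPM in any other type with at least 20 cells. At E8.5 it was highest in Midgut, at 61.3 and 34.0 CPM in WT and 101 and 49.5 CPM in null libraries, which overlapped. *Esrrb* (42.2 CPM, 455 UMIs in 281 cells) and *Zfp42* (128 CPM, 1382 UMIs) were highest in WT ExE ectoderm at E7.5. In the other WT types of that stage with at least 20 cells, *Esrrb* did not pass 1.10 CPM and *Zfp42* did not pass 9.93 CPM. *Utf1* had a pair of high types at E7.5, ExE ectoderm (416 CPM in WT cells) and Epiblast (374 CPM in WT and 417 CPM in null cells). After E7.5, among types with at least 20 cells, it was highest in surface epithelia. Epidermis led at 14.5 CPM at E8.5 and 11.3 CPM at E9.5 in WT cells. The 4 and 15 WT cells labelled PGC at these stages stood at 300 and 219 CPM of *Utf1*.

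**Figure D2:**
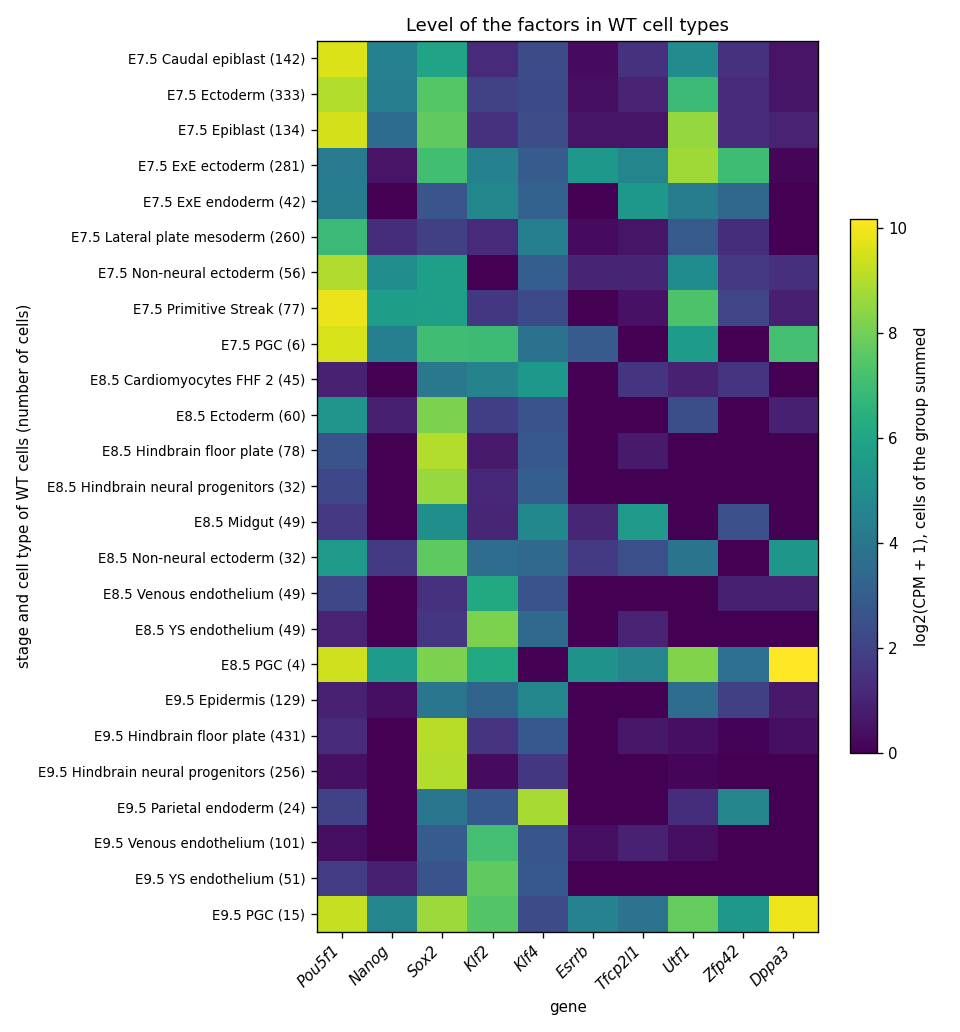
Level of each factor, as log2(CPM + 1) of the summed UMIs (colour), in WT cells of the types that are among the 2 highest of some factor at their stage with at least 20 UMIs of it, and in cells labelled PGC, with the number of cells in parentheses. At E7.5 *Esrrb*, *Tfcp2l1*, *Utf1* and *Zfp42* meet in ExE ectoderm, and *Pou5f1*, *Sox2* and *Utf1* in Epiblast. *Nanog* is highest in the Primitive Streak, and most of the 10 factors meet in the few PGC cells.

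Few cells held UMIs of most of the 10 members, and such a count does not by itself show the naive circuit. A WT cell of E7.5 held UMIs of a median of 2 of the 10 members, and 31 of 2506 WT cells held 7 or more, of which 30 lay among the 281 ExE ectoderm cells. The core was low in WT ExE ectoderm as a whole, with *Nanog* at 0.464 CPM (5 UMIs) and *Pou5f1* at 17.5 CPM. WT Epiblast stood at 11.1 and 730 CPM. Only 1 of 2532 null cells of E7.5 held 7 or more. At E9.5 the cells with 7 or more members were 7 of the 15 WT and 3 of the 6 null cells labelled PGC, and no other cell. A count of members seen rises with the UMIs of a cell. Thinned to 10000 UMIs each, 44 of 2506 WT cells of E7.5 held 5 or more members, 39 of them in ExE ectoderm, against 4 of 2532 null cells. At E9.5 the thinned counts were 8 WT and 3 null cells.

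Across 93 profiles of WT cell types and stages with at least 50 cells, *Pou5f1* and *Nanog* were the most alike pair of members (Pearson r = 0.86 of log2(CPM + 1)). They were followed by *Esrrb* and *Zfp42* (0.75), *Utf1* and *Zfp42* (0.74) and *Pou5f1* and *Utf1* (0.72). Profiles share libraries and depth, so these values are descriptions. Among all genes the closest to *Pou5f1* were *Vrtn* (0.93) and *Syndig1l* (0.87), ahead of *Nanog*, and the closest to *Nanog* were *Platr10* (0.93) and *Zfp36l3* (0.87). *Utf1* was closest to *L1td1* (0.93), *Cbx7* (0.88) and the de novo DNA methyltransferase gene *Dnmt3b* (0.88). *Sox2* was closest to *Sox3* (0.91), *Hap1* (0.90) and *Pbx4* (0.87). *Esrrb* went with *EU599041* (0.94), *Tex13b* (0.92) and *Rhox4g* (0.91), and *Zfp42* with *Gtsf1l* (0.86), *Fmr1nb* (0.81) and the trophoblast factor gene *Elf5* (0.80). *Klf2* was closest to *Adgrg3* (0.84), *Gimap5* (0.83) and *Ndufa8* (0.82), and *Tfcp2l1* to *Triml2* (0.82), *Pnma5* (0.79) and *Tmem125* (0.78). *Klf4* had no closer neighbour than *Plp2*, *Tmem165* and *Cd164* (0.74, 0.74 and 0.73). *Dppa3*, with 78 UMIs over the profiles, had none above *Larp7* at 0.59, followed by *Platr10* (0.59) and *Nanog* (0.58).

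The first comparison of genotypes asked whether null cells of E7.5 held these factors at the host level. *Esrrb* stood at 0.199 and 0.193 CPM in the null libraries and at 6.40 and 5.60 CPM in the WT libraries. *Tfcp2l1* stood at 0.985 and 0.387 CPM against 6.07 and 4.13 CPM, and *Zfp42* at 1.30 and 1.89 CPM against 23.4 and 16.2 CPM. The groups did not overlap for any of them. edgeR called 3 of 10 members, all lower in null libraries, where 2.42% of the 15579 genes tested were called lower and 2.62% in either direction. The log2 fold change was -4.87 for *Esrrb* (SE 0.48, adjusted p = 7.3e-05), -2.70 for *Tfcp2l1* (SE 0.36, adjusted p = 0.00061) and -3.64 for *Zfp42* (SE 0.48, adjusted p = 0.00066).

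The other 7 members were not called. *Pou5f1* was 260 and 336 CPM in null against 154 and 347 CPM in WT libraries (log2 fold change 0.29, SE 0.61, adjusted p = 0.89), and *Nanog* was 6.79 and 13.5 against 4.42 and 9.91 CPM (0.52, SE 0.51, adjusted p = 0.67). The groups overlapped for both genes, and the WT libraries differed from each other by more than the group means did. The embryo size class of these libraries was not known, so its part in that spread was not tested. *Utf1* was 16.1 and 69.4 CPM in null against 89.5 and 108 CPM in WT libraries (log2 fold change -1.19, SE 0.67, adjusted p = 0.39). *Sox2* was 58.3 and 29.9 against 73.7 and 55.7 CPM (-0.48, SE 0.24, adjusted p = 0.32), and without null library A it was called, at -1.04. *Klf4* was 6.72 and 12.3 against 7.10 and 8.44 CPM, which overlapped (0.30, SE 0.29, adjusted p = 0.66). *Klf2* was 2.86 and 3.82 CPM against 6.59 and 4.83 CPM (-0.75, SE 0.37, adjusted p = 0.32). *Dppa3* was low, at 0.0443 and 0.0967 against 0.552 and 0.590 CPM, 6 against 47 UMIs (adjusted p = 0.56). For *Utf1*, *Klf2* and *Dppa3* the null values did not reach the WT values, and for *Sox2* the groups overlapped. The share of all genes with every null library below every WT library was not counted over whole libraries. Of all pairs of a gene and a tested cell type with a UMI at this stage, 16.7% were apart in that way. With so few libraries, a lack of overlap alone was therefore not read as a difference.

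Most WT UMIs of the 3 genes called came from ExE ectoderm, which is mainly host tissue. Of the UMIs of the WT libraries A and B, ExE ectoderm held 98.3% and 93.4% for *Esrrb*, 95.4% and 88.2% for *Zfp42* and 78.8% and 55.8% for *Tfcp2l1*, against 18.6% and 10.5% of the UMIs of all genes. With Visceral endoderm, ExE endoderm and Parietal endoderm added, the shares for *Tfcp2l1* were 90.9% and 88.4%. *Utf1* had 84.3% and 41.5% of its WT UMIs in ExE ectoderm, *Klf2* 54.7% and 48.5% and *Sox2* 31.6% and 27.8%, whereas *Pou5f1* had 0.911% and 0.796%. ExE ectoderm had 114 and 167 cells in the WT libraries and 2 and 0 in the null libraries. The trophoblast marker *Elf5* stood at 0.221 and 0.0483 CPM in null libraries and at 42.8 and 28.9 CPM in WT libraries. The summed level of the 7 ExE ectoderm markers was 248 to 249 CPM in null and 537 to 724 CPM in WT libraries, with none of them at 0, and *Wfdc2* and *Cdx2* gave most of the null sum.

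Left out from every library, those 4 extra-embryonic types took all 3 calls with them. 0 of 10 members were then called by edgeR, and 0 had an unadjusted p under 0.05, where 0.135% of 15501 genes were called. The log2 fold change became -0.70 (SE 0.66) for *Esrrb*, 0.25 (SE 0.35) for *Tfcp2l1*, 0.20 (SE 0.47) for *Zfp42* and -0.07 (SE 0.77) for *Utf1*. The fall of WT levels from E7.5 to E8.5 was recomputed in the same way. Without these types *Pou5f1*, *Nanog*, *Utf1* and *Zfp42* were still called lower (-6.08, -6.01, -5.32 and -2.09), where 6.92% of genes were called lower and 15.9% in either direction. Of the others, *Esrrb* (-1.72, adjusted p = 0.054) and *Tfcp2l1* (0.29, adjusted p = 0.52) were not called, and *Klf2* was called higher (1.10, SE 0.36, adjusted p = 0.026).

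**Figure D3:**
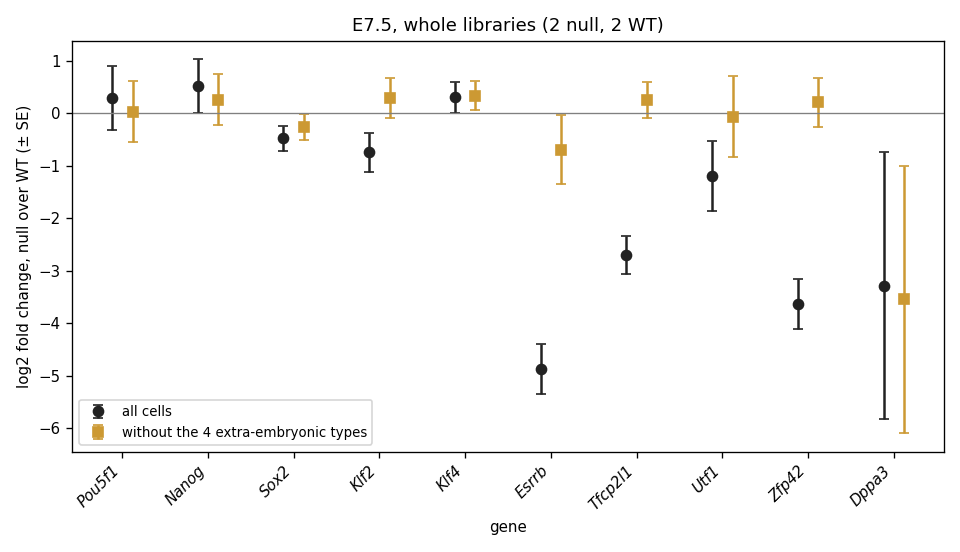
Log2 fold change of null over WT at E7.5 for each factor, from edgeR on 2 null and 2 WT libraries, over all cells (black circles) and with the 4 extra-embryonic types left out (yellow squares). Bars are an approximate SE derived from the F statistic of the test. *Esrrb*, *Tfcp2l1* and *Zfp42* lie at -4.87, -2.70 and -3.64 over all cells and at -0.70, 0.25 and 0.20 without those types.

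At E8.5 none of the 10 members was called (0 of 10), where 0.103% of genes were called, and *Dppa3* was the 1 member with an unadjusted p under 0.05 by edgeR (adjusted p = 0.94). It had 1 UMI in the null libraries and 138 in the WT libraries. At E9.5 the count was 0 of 10 as well, with 0 at an unadjusted p under 0.05, where 0.751% of genes were called, and the log2 fold changes ran from -1.86 (*Dppa3*, SE 1.15, adjusted p = 0.76) to 0.53 (*Pou5f1*, SE 0.56, adjusted p = 0.92). The change of the genotype effect from E7.5 to E8.5 was tested as an interaction and was called for the 3 genes named at E7.5, where 1.12% of all genes were called. It was 4.39 for *Esrrb* (adjusted p = 0.026), 3.31 for *Tfcp2l1* (adjusted p = 0.0053) and 4.30 for *Zfp42* (adjusted p = 0.010) on the log2 scale. ExE ectoderm cells were 0 in all 4 libraries of E8.5. Without the 4 extra-embryonic types the log2 fold changes of these genes at E8.5 were -0.46, 0.82 and 0.67, in the order named. At E7.5 they were then -0.70, 0.25 and 0.20. The interaction was not tested without those types.

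Within cell types no member passed the test. A type was tested where each genotype had at least 2 libraries with over 15 cells of it, which left 7 at E7.5, 20 at E8.5 and 37 at E9.5, and members that passed the filter on low counts gave 24, 39 and 60 tests. No member was called in any type (0 of 123 tests), where 0.184%, 0.0615% and 0.119% of all tests were called at the 3 stages. An unadjusted p under 0.05 by edgeR was reached 14 times, 3 of 24 at E7.5, 3 of 39 at E8.5 and 8 of 60 at E9.5, against 4.06%, 4.31% and 6.26% of all tests. The smallest adjusted p-values were 0.49, 0.19 and 0.21. *Esrrb*, *Zfp42*, *Tfcp2l1* and *Dppa3* passed the filter in no type, and *Nanog* in 2 types of E7.5 only.

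*Pou5f1* in the 7 types of E7.5 had log2 fold changes between -0.19 and 0.30. In Caudal epiblast it was 726 and 809 CPM in null and 674 and 872 CPM in WT libraries. In Ectoderm it was 434 and 623 CPM against 250 and 619 CPM, and in Intermediate mesoderm 377 and 468 CPM against 396 and 515 CPM. Each of these sets overlapped. *Utf1* lay lower in null than in WT libraries, without overlap, in 5 of these 7 types, a pattern that 16.7% of all gene-by-type pairs with a UMI showed at this stage. ExE ectoderm held 84.3% and 41.5% of the *Utf1* UMIs of WT libraries A and B. The part of free RNA from those cells in the other types was not tested. In Intermediate mesoderm it was 2.31 and 2.13 CPM against 5.23 and 8.91 CPM, or 23 against 29 UMIs (log2 fold change -1.57, SE 0.49, adjusted p = 0.49). In Lateral plate mesoderm it was 1.90 and 2.07 CPM against 2.91 and 7.39 CPM (log2 fold change -1.54, SE 0.49, adjusted p = 0.63). Without a filter on low counts edgeR called *Utf1* lower in Blood progenitors (-2.49, adjusted p = 0.0028) and Paraxial mesoderm (-1.94, adjusted p = 0.043), where 0.27% of all tests were called. Without WT library A it called *Utf1* lower in 3 types and *Sox2* higher in Caudal epiblast (1.71), 4 calls in place of 0, where 0.422% of all tests were called, against 0.184% with all 4 libraries.

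*Sox2* gave 8 of the 14 small unadjusted p-values, and in all 8 it was lower in null cells. It also made up many of the member tests, 5 of 24 at E7.5, 14 of 39 at E8.5 and 34 of 60 at E9.5. Types of a stage are parts of the same libraries, so these tests are not independent. The largest difference at E8.5 was in Erythroid cells, at 1.26 and 0.80 CPM in null and 3.06 and 7.71 CPM in WT libraries, a type with a low *Sox2* level (log2 fold change -2.18, SE 0.46, adjusted p = 0.19). It was called there by DESeq2 (adjusted p = 0.025), by edgeR without a filter on low counts (adjusted p = 0.00080) and with all libraries of the type in 1 fit (adjusted p = 0.0075), where 0.0674%, 0.175% and 0.0669% of all tests of the stage were called. Amniotic ectoderm had 5.23 and 2.99 CPM against 12.6 and 18.6 CPM (adjusted p = 0.60). At E9.5 the differences in neural types were small. Dorsal hindbrain progenitors had 329, 361, 329 and 336 CPM in null against 382, 377, 397 and 368 CPM in WT libraries, which did not overlap (log2 fold change -0.16, SE 0.07, adjusted p = 0.57). Dorsal midbrain neurons had 244, 239, 256 and 257 CPM against 329, 257, 292 and 270 CPM (-0.20, SE 0.07, adjusted p = 0.57), where the highest null library fell just short of the lowest WT one. Of 34 types tested for *Sox2* at E9.5, 22 had a negative and 12 a positive log2 fold change, with a median of -0.08.

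*Klf4*, one of the direct targets of STAT3 in ESCs, was tested in 5, 12 and 21 types and was called in 0. Its median log2 fold change over types was 0.34, -0.22 and -0.11 at the 3 stages. Mesenchyme at E7.5 had 19.8 and 27.0 CPM in null against 13.2 and 18.6 CPM in WT libraries (log2 fold change 0.57, SE 0.26, adjusted p = 0.99), 1 of the 3 *Klf4* tests with an unadjusted p under 0.05. The others were lower in null cells. Limb mesoderm at E8.5 had 3.42 and 5.21 against 7.65 and 11.8 CPM (-1.29, SE 0.50, adjusted p = 0.998 by edgeR), and Branchial arch neural crest at E9.5 had 1.50 to 3.03 against 3.11 to 4.17 CPM (-0.85, SE 0.33, adjusted p = 0.58). At E8.5 *Klf4* was lower in every null than in every WT library in 6 of 20 types and higher in 0, a pattern of being lower that 16.4% of all gene-by-type pairs with a UMI showed. At E7.5 it was higher without overlap in 2 of 7 types and lower in 0. At E9.5 it was lower without overlap in 2 of 37 types and higher in 0. The shares of all gene-by-type pairs higher in this way at E7.5 or lower at E9.5 were not counted. No difference was therefore read from these counts. *Klf2* in Venous endothelium at E9.5, with 3 libraries of each genotype tested, was 158 ± 33.8 CPM in null and 123 ± 27.4 CPM in WT libraries (mean ± SD, log2 fold change 0.33, SE 0.16, adjusted p = 0.92). In erythro-myeloid progenitors (EMP) of E9.5 its log2 fold change was 0.04 (SE 0.59).

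Outside the germ line, *Pou5f1* at E9.5 was higher in every null library than in every WT library, at low levels. This pattern was chosen after its values had been seen, so its levels are a description. Without PGC cells it stood at 1.93 to 2.43 CPM in the 4 null libraries and at 0.166 to 1.50 CPM in the 4 WT libraries (2.17 ± 0.21 against 0.977 ± 0.572 CPM, mean ± SD). The groups did not overlap. Of all genes with a UMI, 3.0% had every null library above every WT library in the same sums. edgeR did not call the difference (log2 fold change 1.15, SE 0.64, adjusted p = 0.70).

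The share of cells with a *Pou5f1* UMI, again without PGC cells, was 7.31% to 9.19% in null and 0.488% to 4.20% in WT libraries. Null cells were the deeper ones, with library medians of 30035 to 45760 against 26662 to 39962 UMIs per cell. Thinned to 10000 UMIs per cell, the shares were 1.90% ± 0.55 and 1.09% ± 0.63 (SD, n = 4 and 4). They overlapped. WT library A was the lowest, at 0.163% of thinned cells, and without it the ratio of the thinned means was 1.36.

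Among the 13 types with at least 200 cells of each genotype, all of them neural, mesodermal or neural crest types, the share was higher in null cells in 13, and in 11 after thinning. It ran from 5.21% to 12.0% in null cells and from 2.06% to 4.42% in WT cells. After thinning it ran from 0.976% to 4.09% and from 0.355% to 1.63%, ranges that overlap. In Dorsal midbrain neurons 84 of 943 null cells (8.91%, exact 95% binomial interval 7.17% to 10.9%, median 24956 UMIs) and 18 of 872 WT cells (2.06%, 1.23% to 3.24%, median 21485 UMIs) had a UMI. The interval covers counting error only. Thinned, the shares in this type were 3.29% in null and 1.03% in WT cells. In that type the null libraries stood at 3.06, 3.67, 3.39 and 3.46 CPM and the WT libraries at 0.12, 1.18, 1.48 and 1.80 CPM (log2 fold change 1.76, SE 0.46, adjusted p = 0.21 by edgeR). Null libraries lay above WT libraries without overlap in 10 of the 37 types tested at E9.5 and below in 0, where 4.44% of gene-by-type pairs with a UMI did so. The types are parts of the same libraries in which the pattern was picked. Counts over types therefore restate it and are no separate support. The 4.44% is over all genes, and not over genes already apart in whole libraries. Free RNA in droplets also gives UMIs in cells that do not express a gene. Its part in the difference was not tested, and the share was not read as expression.

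**Figure D4:**
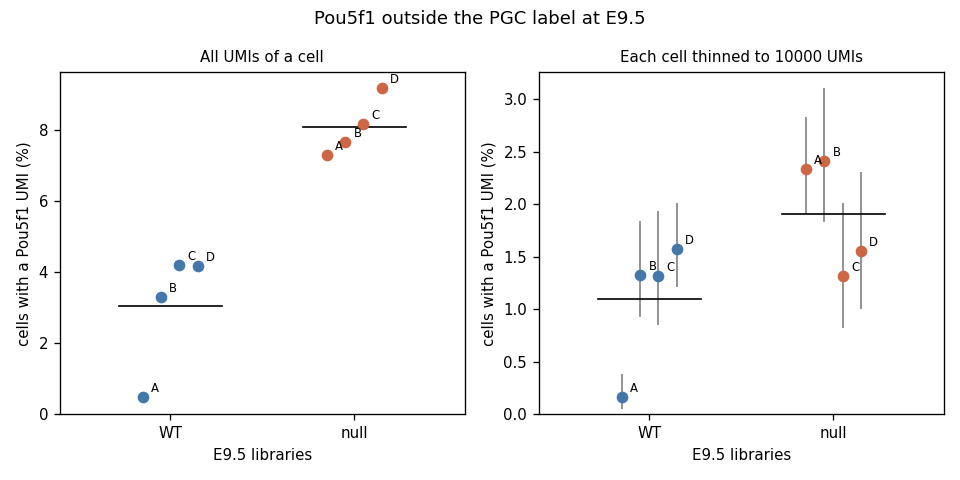
Percent of E9.5 cells outside the PGC label with a *Pou5f1* UMI in each library, over all UMIs of a cell (left) and after each cell was thinned to 10000 UMIs (right, with exact 95% binomial intervals). Lines mark the mean of 4 libraries, letters name libraries, and the groups are apart on the left (7.31% to 9.19% against 0.488% to 4.20%) and overlap on the right.

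The PGC label was carried by 25 WT cells (6, 4 and 15 at the 3 stages) and 17 null cells (10, 1 and 6). The stages made up unequal parts of the genotypes, so levels are given by stage, from summed UMIs. *Pou5f1* stood at 741 CPM in WT and 630 CPM in null cells at E7.5 and at 612 and 654 CPM at E9.5. *Sox2* stood at 132 and 115 CPM at E7.5 and at 407 and 280 CPM at E9.5. *Nanog* was 19.9 and 18.3 CPM at E7.5 but 23.7 and 73.9 CPM at E9.5, and *Utf1* was 46.3 and 29.8 CPM and then 219 and 448 CPM. *Dppa3* was 139 CPM in WT and 4.58 CPM in null cells at E7.5 and 974 and 658 CPM at E9.5. The null cells of library A of E9.5 held 168 *Dppa3* UMIs among 171688 UMIs. WT cells of libraries A, B and D held 79 among 178682, 76 among 54859 and 338 among 272844. The null values of E9.5 rest on library A. The 2 null cells of the other libraries together held 1 *Nanog* UMI (11.7 CPM) and 1 *Dppa3* UMI (11.7 CPM). Their sums put *Pou5f1* at 528, *Sox2* at 223 and *Utf1* at 305 CPM. The cell of library B held 45 *Pou5f1* UMIs among its 44941 UMIs. The cell of library D, with 40348 UMIs, held 0 UMIs of every member. These sums thus mix a cell that held the factors with a cell that did not, and no order of the genotypes is read from them. The cells are too few, and too unevenly spread over libraries, for a test across samples.

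At E7.5 the 6 WT cells held 21 *Dppa3* UMIs and the 10 null cells 2. Other regulators of germ cell fate were unevenly spread over the null cells. The 6 null cells of library A held 2 UMIs of *Prdm1*, 7 of *Tfap2c*, 0 of *Prdm14* and 1 of *Nanos3*, and the 4 of library B held 25, 27, 15 and 13, of which a single cell gave 20, 17, 7 and 11. The 1 WT cell of library A held 0, 3, 2 and 0 UMIs of these genes, in the same order. The 5 WT cells of library B held 16, 17, 0 and 3, of which a single cell gave 5, 9, 0 and 1. Most cells of both genotypes under this label at E7.5 therefore held few or no UMIs of these markers. Over all 10 null cells the levels were 61.9 CPM for *Prdm1* and 77.9 CPM for *Tfap2c*, against 106 and 132 CPM in the WT cells, and 34.4 CPM for *Prdm14* and 32.1 CPM for *Nanos3*, against 13.2 and 19.9 CPM. At E8.5 the counts were 96 *Dppa3* UMIs in 4 WT cells and 1 in the single null cell, which held 21 *Pou5f1* UMIs. At E9.5 they were 493 in 15 WT cells and 169 in 6 null cells.

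Counted by cell, 3 or more *Dppa3* UMIs were found in 17 of 25 WT cells (4, 3 and 10 at the 3 stages) and in 2 of 17 null cells (0, 0 and 2). Both null cells came from library A of E9.5. The label was not uniform, since 5 of 15 WT and 3 of 6 null cells labelled PGC at E9.5 held no *Pou5f1* UMI. Another cell, a WT cell of E8.5 labelled Non-neural ectoderm, held 35 *Dppa3* and 34 *Pou5f1* UMIs and gave most of the *Pou5f1* of that type.

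**Figure D5:**
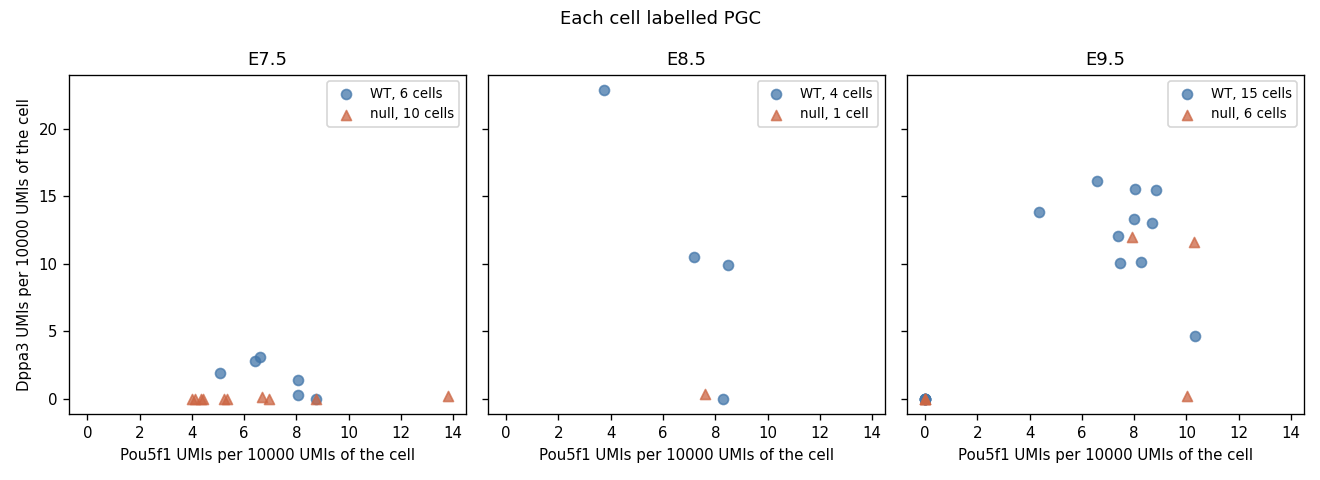
Each cell labelled PGC, by its *Pou5f1* (x axis) and *Dppa3* (y axis) UMIs per 10000 UMIs of the cell, with WT cells as blue circles and null cells as red triangles. The 10 null cells of E7.5 lie near 0 on the *Dppa3* axis at *Pou5f1* levels on both sides of those of the 6 WT cells, and at E9.5 both genotypes have cells high in both genes and cells at 0 for both.

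The rest of the pathway was read from 4 lists. Of 14 genes of the LIF and STAT3 arm, from ligand and receptors to feedback targets, only *Stat3* was called between genotypes over whole libraries, lower in null libraries at each stage (log2 fold change -2.48, -1.89 and -1.54). The median over the 14 genes was -0.17, -0.05 and -0.10. Of the 8 other naive factors tested, *Klf5* (-1.14) and *Nr0b1* (-4.67) were called lower at E7.5, and of 7 genes of the general pluripotency network *Dppa4* (-4.87) and *Dppa2* (-3.60), where 2.42% of all genes were called lower. ExE ectoderm had 2 and 0 cells in null and 114 and 167 in WT libraries. The share of the UMIs of these 4 genes in those cells was not computed, and the part of that gap in their calls was not tested. With the 4 extra-embryonic types left out none of the 4 genes was called. Their log2 fold changes were then -0.36, -1.15, -1.96 and -0.10, in the order named, whereas *Stat3* was still called (-2.23). The 8 formative and primed genes, which mark the epiblast after implantation, gave 0 calls between genotypes at every stage, with medians of -0.04, 0.04 and 0.01. At E8.5 and E9.5 none of the naive or general genes was called.

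Within cell types the LIF and STAT3 arm gave 2 calls of 64 tests at E7.5, 1 of 165 at E8.5 and 9 of 331 at E9.5, all lower in null cells, where 0.184%, 0.0615% and 0.119% of all tests were called. *Stat3* gave all but 2 of these, and *Pim1*, a kinase gene that STAT3 induces, gave those in Erythroid cells at E8.5 (log2 fold change -1.51) and in EMP at E9.5 (-1.88). The other 3 lists gave 0 calls. In WT libraries from E7.5 to E8.5, 4 of 8 other naive factors, 4 of 7 general and 4 of 8 formative and primed genes were called lower, with medians of -2.12, -4.16 and -1.53, where 8.54% of all genes were called lower. Without the 4 extra-embryonic types the counts were 5, 3 and 5 and the medians -1.93, -1.97 and -1.15. *Tbx3* and *Zic2* were then called as well, and *Dppa4* (-1.97, adjusted p = 0.092) no longer was. Of the 14 genes of the LIF and STAT3 arm, *Lif* (-4.11) was called lower and *Jak2* (1.26) and *Pim1* (1.36) were called higher, with a median of 0.02, where 17.7% of all genes were called in either direction. Without those types *Lif* did not pass the filter on low counts, and *Jak2* (1.31) and *Pim1* (1.41) were called, where 15.9% of all genes were. From E8.5 to E9.5 *Nr0b1* (4.11) and *Il6ra* (1.53) were called higher and *Fgf4* (-1.08) and *Lin28a* (-1.11) lower, where 10.1% of all genes were called in either direction.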

How the data were processed

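Per the labels, 16 libraries of tdTomato-sorted null and WT cells from chimeric embryos were made with 10x 3′ v3 chemistry. Reads were mapped by the authors with CellRanger against mm10, counted on the GRCm38.p5 annotation with Tomato-Td added, and deposited raw UMI counts per gene and cell, without normalization. They kept cells by limits on UMIs, genes and the mitochondrial and ribosomal shares, called doublets with scds and transferred cell types from an extended gastrulation atlas. Every cell kept held at least 10003 UMIs. The authors' cell table also gives the mitochondrial percent of each cell, with medians per library of 0.94% to 1.81%, and that percent was used only to describe libraries. Null cells were those of the tdTomato-positive gate, and WT cells those of the negative gate without a tdTomato UMI (596 left out). Doublet calls were left out as well (3395). Per-sample columns without a match numbered 0.

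UMIs were summed per library, and per library and type, and tested with edgeR 4.0.16 (R 4.3.3, robust quasi-likelihood, filterByExpr, TMM), whole libraries of all 6 groups in 1 fit and each type and stage in a fit of its own. After the study's list, though without its removal of imprinted genes, predicted genes, haemoglobin genes, mitochondrial genes, those for ribosomal proteins, Y-linked genes, tdTomato, *Xist* and *Tsix* were left out, and 21281 of 29453 genes could be tested. A call needed a Benjamini-Hochberg adjusted p under 0.05 and an absolute log2 fold change over 1. Log2 fold changes set null over WT, or the later over the earlier stage. Each SE is an approximation, the absolute log2 fold change divided by the square root of the F statistic of its test. For shares of cells, each cell was thinned to 10000 UMIs. Intervals are exact (Clopper-Pearson, scipy 1.17.1). The scripts were tested on simulated data. DESeq2 1.42.0 and limma-voom (limma 3.58.1) were among the alternatives.

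All 10 members were described. Likeness named the 3 genes with the highest r to a member, and from other lists called genes were named, at most 6 of the largest fold change per comparison. The members, lists and tests were chosen with earlier results of these data known. Leaving out the cells labelled PGC, the PGC values without library A, the other lists without extra-embryonic types, and the description of *Pou5f1* at E9.5, were chosen after seeing the data. The library names match no sample title, so libraries carry a stage and genotype but no embryo pool. The authors' design has that pool as a block, which could not be fitted.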

Additional observations from a re-analysis of the deposited data

Results flagged for a closer look

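Over all cells, the difference between null and WT libraries was not the same at E7.5 and E8.5 for *Esrrb*, *Tfcp2l1* and *Zfp42*. Without the 4 extra-embryonic types their log2 fold changes were -0.70, 0.25 and 0.20 at E7.5 and -0.46, 0.82 and 0.67 at E8.5. Tested as an interaction with edgeR, the E8.5 log2 fold change minus that of E7.5 was 4.39 for *Esrrb*, 3.31 for *Tfcp2l1* and 4.30 for *Zfp42*, where 1.12% of all genes were called. ExE ectoderm cells, which held most WT UMIs of these genes at E7.5, were 114 and 167 in the WT libraries of E7.5 and 0 in those of E8.5.

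A search for single libraries far from the rest of their group used Dixon's 95% limit in 40 groups of 4 libraries, of which chance passes about 1 in 20, and 4 passed. *Nanog* in WT library D of E9.5 stood at 0.218 CPM, and at 0.481% of cells with a UMI, above the other WT libraries. *Dppa3* stood at 1.28 CPM in null library A of E9.5, which held the 2 null PGC cells rich in *Dppa3*, against 0 to 0.082 CPM in the other null libraries. *Esrrb* was seen in 0.249% of cells of null library B of E9.5.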

How the results depend on the processing

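The 29 settings changed the test, normalization, filter, fold limit, composition or libraries. Of 311 refits of the 22 fold changes named, 285 kept their direction and side of the threshold, 10 lost a call, 6 gained one and 10 turned sign. Of the 40 whole-library fold changes not called, 24 changed sign in some of 595 refits.

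At E7.5 null against WT, 0 members were called without extra-embryonic types (*Tfcp2l1* 0.25 and *Zfp42* 0.20 on the log2 scale) and 0 with equal weight per cell type (*Zfp42* 0.074), against 3. The equal weight fits used limma on log2(CPM + 1), which shrinks changes in genes of low CPM. They kept only types with over 15 cells in every library compared, which left out ExE ectoderm at E7.5. That count is therefore no separate result from the one without extra-embryonic types. For WT E8.5 against E7.5, *Tfcp2l1* was 0.29 without extra-embryonic types and 0.061 with equal weight, where 0 were called against 6 and the fit rests on the few types both stages share. For WT E9.5 against E8.5, equal weight gave 0 calls (*Tfcp2l1* 0.048), and 2 were called with no fold limit and 2 without PGC, against 1.

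With 1 library left out, where a lone library is assumed to vary like the others, 3 to 4 members were called at E7.5 and 0 to 2 for WT E9.5 against E8.5 (0 without E8.5 WT B, 2 without E9.5 WT D). Within types the calls ran from 0 to 4 at E7.5 and 0 to 1 at E8.5, the latter *Pou5f1* in Dorsal spinal cord progenitors without null A, where 0.407% of all tests were called, against 0.0615%. Fold changes turned sign at E7.5 for *Nanog* (-0.071 without null B to 1.26 without WT B) and *Pou5f1* (-0.19 without WT A to 1.03 without WT B), and for *Klf2* from E7.5 to E8.5 in WT (-0.10 without E7.5 WT B, -0.32 without E8.5 WT A, 0.41 without E8.5 WT B).

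Within types, 1 member was called at E8.5 by DESeq2, 1 without a filter and 1 with all libraries in 1 fit, each *Sox2* in Erythroid cells. Without a filter 2 were called at E7.5 and 1 at E9.5, *Sox2* in Dermomyotome. With over 50 cells required, no type of E7.5 was left. The causes of these shifts were not tested beyond what each setting leaves out.

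No paired analysis was possible because the library names match no sample title, so no library carries its replicate number. *Dppa3*, *Esrrb*, *Tfcp2l1* and *Zfp42* passed the filter on low counts in no type, so that at this depth no difference in them within a type was tested.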
